A study of Mus musculus with 16 samples.

Results

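Uteri of mice carrying an altered estrogen receptor alpha were compared with wild-type (WT) uteri 6 h after 17beta-estradiol (E2). The receptor form, and the genotype, are named Arg260 after an arginine of the receptor. What replaced it, the strain of the mice and the number of animals per sample are not in the labels. The comparison is Arg260 E2 (4 arrays) against WT E2 (4 arrays), 8 of the 16 arrays of the series. All these mice had lost their ovaries at an age of 4 weeks, had spent 2 to 3 weeks without ovarian hormone on normal chow, and had then received 8 ug/kg of E2 in castor oil under the skin. The other 8 arrays, 4 WT and 4 Arg260, came from mice treated in the same way with castor oil that held no E2 (called PLB). The 8 E2 arrays were chosen by genotype and treatment, and genes were compared across all probes that exceeded background clearly in 4 or more of these 8 E2 arrays. That left 35582 of 55681 non-control probes, which carry 24210 different names, each counted here as a gene. Some of these names are probe names, accessions or chromosome intervals, since 24300 of the 55681 probes kept the name in the array files. Shares of all genes below are shares of the 24210 names. The labels do not say that samples are separate animals, so p-values reflect only how far these samples spread, and that may be technical.

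Estrogen receptor alpha is a nuclear receptor that binds E2 and then sits on DNA, directly at estrogen response elements or through partners such as AP-1, to change transcription. A smaller pool of the receptor works at the cell membrane, where it engages kinases such as Src and PI3 kinase. The arginine for which these mice are named is the site at which the methyltransferase Prmt1 modifies the human receptor, a step tied to that membrane pool. In the uterus E2 causes water uptake within hours and then growth of the epithelium, so this organ is a classical place to ask how much of the hormone's action an altered receptor retains.

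Levels below are log2 of the processed spot signal minus the log2 of the 75th percentile of its array, so that 0 is the 75th percentile and 1 unit is a doubling of signal; a difference is Arg260 minus WT unless stated otherwise. All 16 markers of luminal epithelium, all 14 of stroma and all 12 of smooth muscle were well above background on the 8 arrays. Their mean levels were 2.03 to 2.47, 2.53 to 3.10 and 3.53 to 4.05. Of 9 tested markers of glandular epithelium 8 were, at -1.75 to -0.91. Signal above background does not by itself identify the tissue. It also held for 6 of 7 tested oviduct markers and 8 of 9 striated muscle markers, at mean levels of -3.65 to -3.30 and -1.38 to -0.91. Correlations and principal components used those of the 35582 probes that held a value on all 16 arrays, and probes are not independent replicates. Arrays of WT E2 correlated at 0.988 to 0.992 with each other, those of Arg260 E2 at 0.989 to 0.993, and arrays of different genotype at 0.985 to 0.993. The first principal component of the 8 arrays held 26.6% of their variance and ran from WT E2 replicate 4 to Arg260 E2 replicate 1, with arrays of both genotypes on either side of 0. Replicates 1 and 2 of every group lay on 1 slide and replicates 3 and 4 on the other.

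At 6 h after E2 the uterine transcriptomes of the 2 genotypes were close to each other. Of the 35582 probes, 4 (0.0112%) were called at an adjusted p under 0.05 (limma, Benjamini-Hochberg): Il11 and Kalrn were higher in Arg260, and Fam178b and Gpsm2 were lower. The median absolute difference was 0.11 and the 95th percentile 0.49, whereas the median absolute response to E2 was 0.57 in WT and 0.59 in Arg260. In total 102 probes lay more than 1 unit higher and 91 more than 1 unit lower in Arg260. The 95% interval of the difference stayed within 1 unit of 0 for 32041 probes (90.0%), and within 1.5-fold for 24851 (69.8%). At an unadjusted p under 0.05 the comparison gave 2586 probes (7.27%), 1392 of them higher. That share of higher probes (53.8%) was 42.5% after quantile normalisation and 44.7% in the deposited series table, so the direction of the weaker differences as a whole depends on the scaling. The same genotype contrast in the 8 PLB arrays, which share no array with this comparison, gave 0 called probes in limma and 896 (2.52%) at an unadjusted p under 0.05. The difference between genotypes in their response to E2 (the interaction) also gave 0 called probes, with 1301 (3.66%) at an unadjusted p under 0.05.

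**Figure D1:**
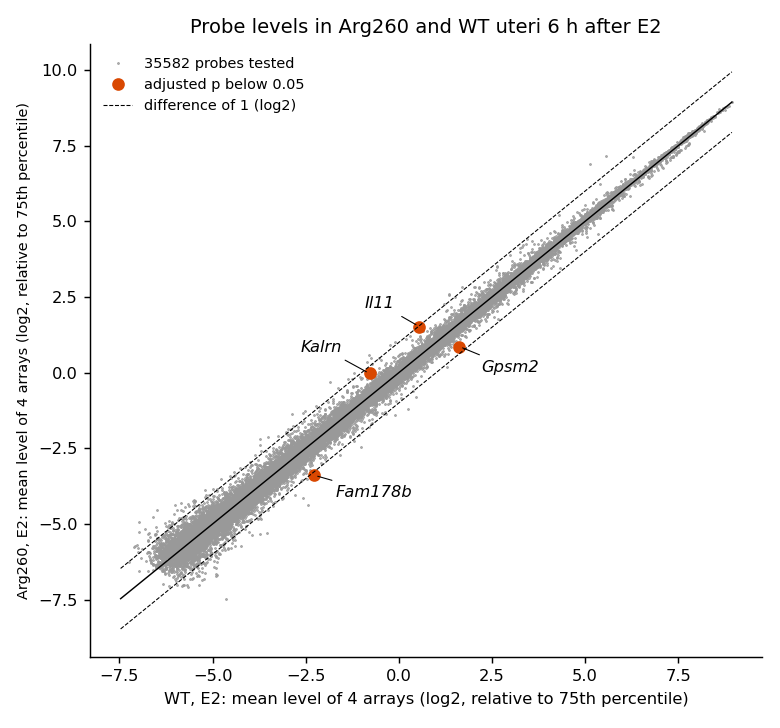
Mean log2 level of each of the 35582 probes in WT E2 (x axis, 4 arrays) and Arg260 E2 (y axis, 4 arrays), with the line of equal levels, dashed lines at a difference of 1 unit, and the 4 called probes in orange. The points lie along the line of equal levels, and Il11, Kalrn, Gpsm2 and Fam178b lie near the dashed lines.

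Il11 encodes interleukin 11, a cytokine of the interleukin 6 family that is needed in mice for the uterine stroma to turn into decidua. After E2 its level was 0.67, 0.50, 0.69 and 0.31 on the WT arrays and 1.55, 1.36, 1.55 and 1.64 on the Arg260 arrays. Every Arg260 array lay above every WT array. The difference was 0.98 (SE 0.14), a 1.97-fold higher signal (limma adjusted p = 0.0470 by Benjamini-Hochberg). Without hormone the gene was low in both genotypes, at -4.10 to -3.35 in WT and -4.0 to -3.72 in Arg260, and the difference there was -0.16. Il11 was thus 19-fold higher after E2 than after PLB in WT and 41.8-fold higher in Arg260, responses that share their E2 arrays with the comparison of genotypes. The difference of these responses was 1.14 (SE 0.20; unadjusted p = 4.4e-05, limma adjusted p = 0.666). The probe of Il11 lies at chr7:4724847-4724906 of mouse build mm9. Among the 13 other probes within 100 kb of it none was called, and the smallest p among them was that of Cox6b2 (difference 0.38, limma adjusted p = 0.496).

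The start region of Il11 is shown because the gene holds the largest called rise. The 250 bases before 1 of its 2 RefSeq starts (chr7:4778142-4778391 of GRCm38.p6, reverse strand, 5′ to 3′) hold 1 match to the AP-1 motif TGANTCA, in capitals, which ends 91 bases before the start. The motif reads the same on both strands apart from its middle base, and 6.75% of 32851 RefSeq promoters of that length hold it. The full palindrome of the estrogen response element (GGTCA and TGACC with any 3 bases between them, which reads the same on both strands) was found in 0.0639% of those promoters and in none of the 7 listed for Il11, Kalrn, Fam178b and Gpsm2. These are matches of letters within a short window only.
Il11: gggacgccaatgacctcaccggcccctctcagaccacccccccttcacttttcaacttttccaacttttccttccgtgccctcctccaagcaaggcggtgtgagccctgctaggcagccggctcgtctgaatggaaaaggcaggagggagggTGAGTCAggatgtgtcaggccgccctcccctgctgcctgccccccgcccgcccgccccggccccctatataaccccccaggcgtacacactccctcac

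Kalrn encodes kalirin, an exchange factor that activates small GTPases. On the called probe its level was -0.69, -0.66, -0.99 and -0.81 on the WT arrays and 0.24, -0.12, -0.01 and -0.22 on the Arg260 arrays. The groups did not overlap. The difference was 0.76 (SE 0.10), or 1.69-fold (limma adjusted p = 0.0290), against 0.01 without hormone. The array carries 6 probes for Kalrn, and on all 6 every Arg260 E2 array exceeded every WT E2 array, with differences of 0.50 to 1.15; 3.9% of all probes had groups that did not overlap. The other 5 probes were not called (limma adjusted p from 0.264 to 0.617). Arg260 E2 replicate 1 gave the highest level of its group on each of the 6 probes, and without it the called probe had a difference of 0.67 (limma adjusted p = 0.0518). After E2 the called probe rose 1.40-fold in WT and 2.36-fold in Arg260, whereas the brightest probe had log2 differences between E2 and PLB of -0.41 (WT) and 0.47 (Arg260). The called probe lies at chr16:34014193-34014252 of mm9 and the other 5 spread from 33975602 to 34178442 on the same chromosome; no mm9 gene models were used here, so exons were not assigned.

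Fam178b gave the largest called fall. Its called probe (chr1:36656829-36656888, mm9) read -2.49, -2.01, -2.50 and -2.09 on the WT arrays and -3.04, -3.43, -3.74 and -3.35 on the Arg260 arrays. The groups did not overlap, although all these levels are dim. The difference was -1.12 (SE 0.14), a 2.17-fold lower signal (limma adjusted p = 0.0290). Without hormone the difference was 0.03, and the probe rose 4.41-fold after E2 in WT and 2.00-fold in Arg260. A second and brighter Fam178b probe (chr1:36619544-36619603) had a smaller value: its difference was -0.23 (limma adjusted p = 0.665), and it fell after E2 in both genotypes. A probe of the transcript D430040D24Rik, 34 kb from the called one, had a difference of -0.77 (limma adjusted p = 0.310).

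Gpsm2 encodes LGN, the adaptor that ties the mitotic spindle to the cell cortex. Its probe (chr3:108482222-108482281, mm9) read 1.48, 1.81, 1.59 and 1.61 on the WT arrays and 0.74, 0.93, 1.05 and 0.74 on the Arg260 arrays, with no overlap. The difference was -0.76 (SE 0.10), a 1.69-fold lower signal (limma adjusted p = 0.0337). Without hormone the level was 2.38 to 2.67 in WT and 2.31 to 2.57 in Arg260. E2 lowered the gene in both genotypes, by a factor of 1.83 (WT) or 3.03 (Arg260).

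**Figure D2:**
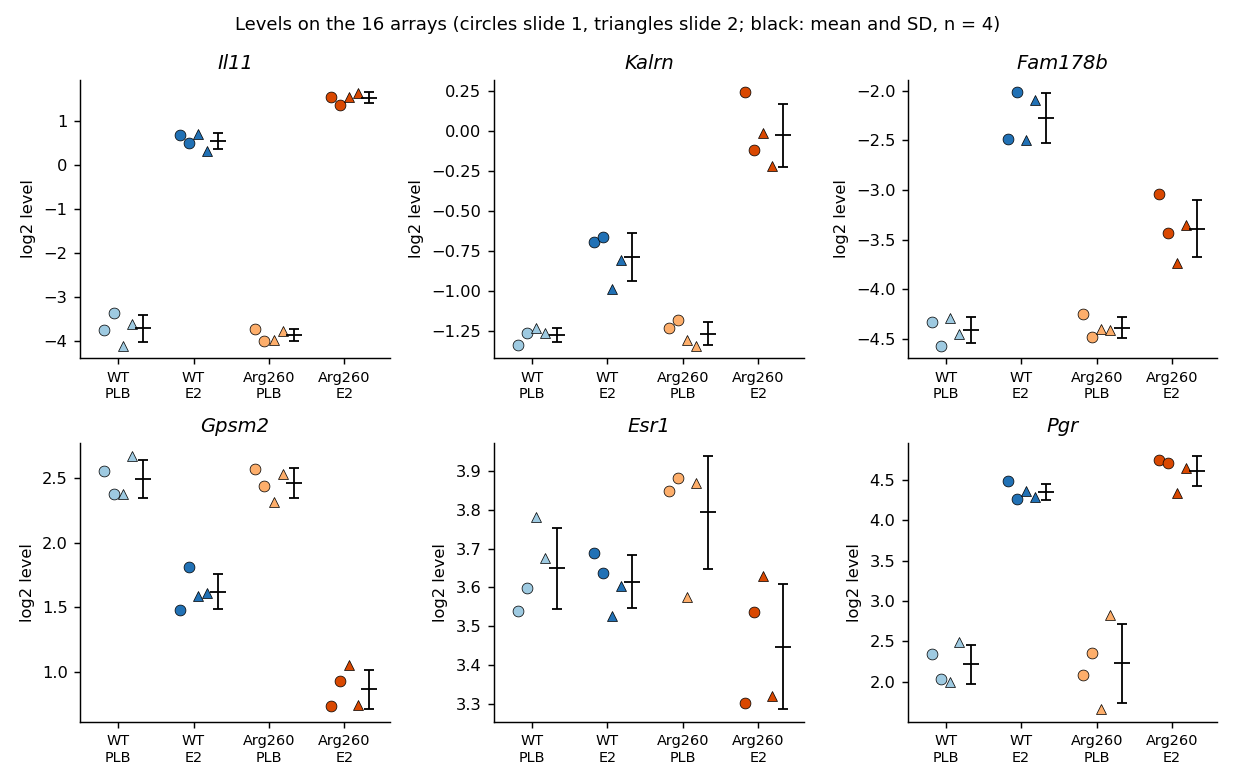
Log2 level (y axis, relative to the 75th percentile of the array) of the 4 called probes and of the brightest Esr1 and Pgr probes on the 16 arrays, by group (x axis); circles are slide 1, triangles slide 2, black marks the mean and SD of 4 arrays. Il11, Kalrn, Fam178b and Gpsm2 part the E2 groups and not the PLB groups, whereas Esr1 and Pgr overlap between genotypes after E2.

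The size of these 4 differences was similar on both slides, but the calls were not firm. The 4 probes were picked by their p over these same arrays, which favours likeness between slides, so that likeness is no separate support. Il11 differed by 0.87 on slide 1 and 1.09 on slide 2, Kalrn by 0.74 and 0.78, Fam178b by -0.99 and -1.25, and Gpsm2 by -0.81 and -0.70. The calls rest on the estimate of spread shared over 16 arrays. From the 8 E2 arrays alone 0 probes were called, and 1 (Kalrn) was with slide as a block. Leaving out 2 PLB arrays chosen after seeing the data (WT PLB replicate 2 and Arg260 PLB replicate 3) also gave 0. Whether these 2 arrays stand apart from their groups was not tested. Without 1 of the 8 E2 arrays the count was 0 to 8. It was 0 without any 1 of the WT arrays or Arg260 replicate 2, 1 without Arg260 replicate 1 or 4, and 8 without Arg260 replicate 3.

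The receptor's own transcript and its best known target gave no call. On the brightest of the 4 probes of Esr1 the level was 3.69, 3.64, 3.53 and 3.6 in WT and 3.30, 3.54, 3.63 and 3.32 in Arg260. These ranges overlap, and the difference was -0.17 (95% interval -0.37 to 0.04; limma adjusted p = 0.731). The other 3 Esr1 probes differed by -0.13, -0.0037 and 0.25, the last with an unadjusted p of 0.0090 and a limma adjusted p of 0.584. The probes measure the transcript and not the altered residue, so they do not check the genotype. Pgr, the progesterone receptor gene, read 4.48, 4.26, 4.36 and 4.28 in WT and 4.74, 4.71, 4.33 and 4.65 in Arg260 on its brightest probe. The ranges overlap, with a difference of 0.26 (95% interval -0.16 to 0.68; limma adjusted p = 0.793), and the other 2 probes differed by 0.07 and 0.14. All 3 Pgr probes rose after E2 in both genotypes, by 2.13 to 3.03 in WT and 2.37 to 2.99 in Arg260.

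The chromosome that carries the altered gene was read by distance from Esr1. Of 97 probes within 5 Mb of Esr1, 0 were called in limma and 2 (2.06%) had an unadjusted p under 0.05, 1 of them the Esr1 probe with a difference of 0.25. At 5 to 20 Mb the count was 9 of 121 (7.44%), on the rest of chromosome 10 it was 91 of 1312 (6.94%), and on the other chromosomes it was 2464 of 33822 (7.29%). The 4 called probes lie on chromosomes 1, 3, 7 and 16.

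**Figure D3:**
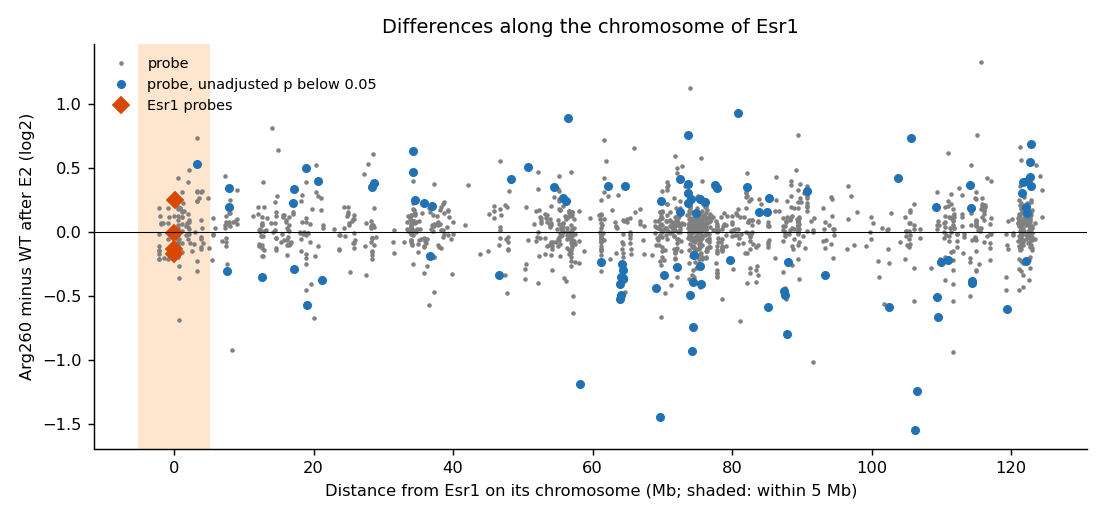
Difference between Arg260 E2 and WT E2 (y axis, log2) of each probe on the chromosome of Esr1 against its distance from Esr1 (x axis, Mb), with probes of unadjusted p under 0.05 in blue, the 4 Esr1 probes in orange and the 5 Mb on either side shaded. Only 2 of 97 probes in the shaded stretch are at an unadjusted p under 0.05, and no probe on this chromosome was called.

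Known estrogen-induced genes of the uterus had 0 of 35 members called between genotypes, where 0.00826% of all genes were called (smallest limma adjusted p = 0.525), with 3 higher and 0 lower at an unadjusted p under 0.05. After E2, 32 of the 35 rose in WT and 30 rose in Arg260 (over all genes, 34.3% and 36% rose), with median responses of 3.55 and 3.43. The 2 responses share their E2 arrays with the comparison of genotypes. The list's median difference was 0.17, against 0.03 over all 24210 genes; it was 0.09 without WT E2 replicate 4 and 0.28 without Arg260 E2 replicate 3. Mad2l1, a gene of the spindle checkpoint, read 5.47, 4.93, 4.83 and 4.76 in WT and 5.28, 5.6, 5.46 and 5.80 in Arg260. These ranges overlap, and the difference was 0.54 (SE 0.16; limma adjusted p = 0.525). Sprr2b, a cornified-envelope protein gene of the epithelium, had the largest value of the list at 1.62 (SE 0.59; limma adjusted p = 0.617), but its WT levels were dim, ran from -8.04 to -4.35 and overlapped those of Arg260. The water channel gene Aqp8 differed by 0.61 (limma adjusted p = 0.648), and the genotypes differed by 0.52 in it without hormone. Of 13 estrogen-repressed genes 0 were called, and the median difference was -0.13. That median was -0.03 without WT E2 replicate 4 or Arg260 E2 replicate 4, -0.05 without WT E2 replicate 2, -0.07 without Arg260 E2 replicate 1 and -0.20 without WT E2 replicate 3. Thra, a thyroid hormone receptor gene, had the smallest p (difference -0.38, limma adjusted p = 0.669).

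Partners of the receptor at the membrane held no call. Of 30 genes for kinases, palmitoylating enzymes, caveolins, G proteins and scaffolds, 0 were called, the median difference was 0.03, and for all 30 the 95% interval stayed within 1 unit of 0. Erbb2, a growth factor receptor gene, differed by -0.30 (SE 0.13; limma adjusted p = 0.664), the scaffold gene Bcar1 by -0.22, the receptor gene Igf1r by -0.31 and the coactivator gene Pelp1 by 0.14. Among 12 genes of arginine methylation, 0 were called, and 2 higher and 1 lower had an unadjusted p under 0.05: Prmt2 differed by -0.33 and Prmt6 by 0.35, both methyltransferase genes, and Btg1, a partner of Prmt1, by 0.33. Among 17 genes of MAP kinase feedback 0 were called, and 1 higher and 2 lower had an unadjusted p under 0.05. Most values of this list (13 of 17) were higher in Arg260, with a median of 0.09 and a largest value of 1.41. The inhibitor gene Spred2 read -0.94, -0.87, -0.83 and -0.88 in WT and -1.10, -1.28, -1.21 and -1.28 in Arg260. Its groups did not overlap, yet the difference of -0.34 was not called (limma adjusted p = 0.419). Of the nuclear receptor and coregulator genes, 0 of 27 were called, and every 95% interval stayed within 1 unit of 0.

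Interferon-stimulated genes encode the antiviral machinery that type I and type II interferons switch on through the Stat and Irf factors, and the uterus expresses them without infection. None of the 27 tested was called between genotypes after E2 (smallest limma adjusted p = 0.267). All 27 values were higher in Arg260, with a median difference of 0.53 and a range of 0.13 to 1.15. Over all genes 58.4% of values were higher and the median was 0.03. A shared sign was not particular to this list. In Arg260, 31 of 32 oxidative phosphorylation genes (median 0.07) and 38 of 40 ribosome biogenesis genes (median 0.11) were also higher, by less. At an unadjusted p under 0.05 there were 21 of 27, against 7.22% of all genes, and 6 of the 27 had groups that did not overlap (3.9% of all probes). The 27 genes were read on the same arrays and are not independent results. The list was chosen with earlier results of these data known. In the 8 PLB arrays 5 of the 27 values were higher and the median was -0.08.

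Mx2, a GTPase gene of virus defence, had the smallest p of the list. It read -1.14, -1.63, -1.40 and -1.43 on the WT arrays, against -0.63, -1.09, -0.38 and -0.48 on the Arg260 arrays. The lowest Arg260 array stood just above the highest WT array, and the difference was 0.76 (SE 0.15; limma adjusted p = 0.267). Ifih1, a sensor of viral RNA, read -0.42, -0.30, -0.45 and -0.34 on the WT arrays, against -0.01, -0.21, 0.07 and 0.17 on the Arg260 arrays. The groups did not overlap (difference 0.38, SE 0.09; limma adjusted p = 0.354). Stat2, the factor that carries the type I interferon signal to DNA, read 1.90, 1.65, 1.72 and 1.87 in WT and 1.91, 2.06, 2.36 and 2.43 in Arg260, a difference of 0.40 (SE 0.10; limma adjusted p = 0.447). Gbp3, a guanylate-binding GTPase gene, read -0.22, -0.13, -0.13 and -0.18 in WT and -0.07, 0.36, 1.06 and 0.72 in Arg260. It differed by 0.68 (SE 0.20; limma adjusted p = 0.525), and its Arg260 arrays spread far wider than its WT arrays.

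The level of the list as a whole depended on the array. Its mean was -0.21, -0.27, -0.17 and -0.10 on the WT E2 arrays and 0.07, 0.06, 0.67 and 0.56 on the Arg260 E2 arrays, and between 0.55 and 1.01 on the 8 PLB arrays. All Arg260 E2 arrays thus lay above all WT E2 arrays, and Arg260 E2 replicates 3 and 4, both on slide 2, lay furthest above. The median difference was 0.23 on slide 1, where 3 of 27 had an unadjusted p under 0.05, and 0.81 on slide 2, where 19 had. Without Arg260 E2 replicate 3 the median was 0.36 and 10 of 27 had an unadjusted p under 0.05, and without replicate 4 it was 0.43 with 12. On slide 1, 24 of the 27 values were higher. All 27 values were higher under each omission of 1 E2 array and under each of the 4 other scalings.

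Relative to PLB, 19 of the 27 fell and 1 rose after E2 in WT uteri. In Arg260 uteri 12 fell and 3 rose; over all genes, 30.6% and 29.7% fell. Median responses were -1.06 (WT) and -0.19 (Arg260). These responses share their E2 arrays with the comparison of genotypes. The difference between the responses was called for 0 of 27 in limma (smallest adjusted p = 0.9998), with 14 at an unadjusted p under 0.05, all of them positive. Over all genes 878 of 24210 (3.63%) had such a p, 621 of them positive.

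**Figure D4:**
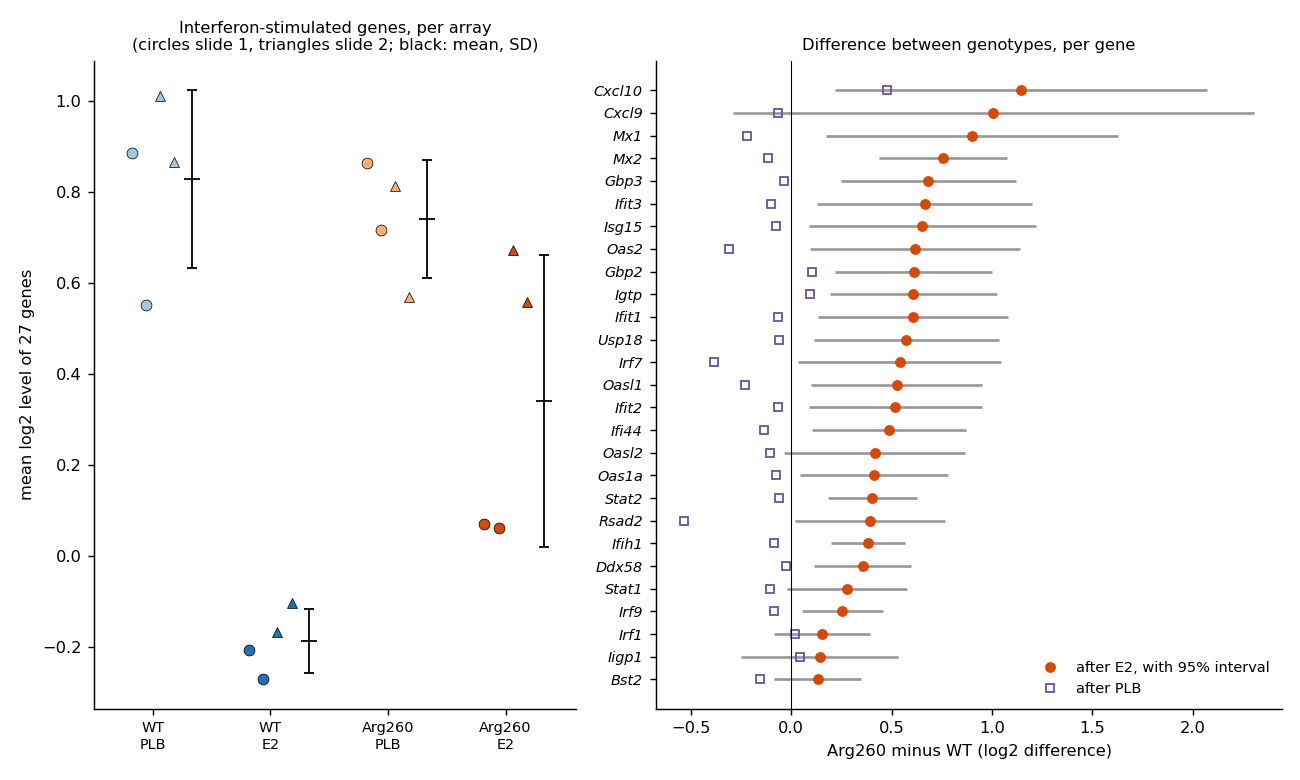
Left, mean log2 level (y axis) of the 27 interferon-stimulated genes on each of the 16 arrays by group (x axis; circles slide 1, triangles slide 2; black, mean and SD of 4 arrays). Right, difference between Arg260 and WT per gene (x axis, log2) after E2 with its 95% interval (orange) and after PLB (open squares). All 27 orange points lie to the right of 0, and the 4 WT E2 arrays lie lowest on the left.

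The start regions of Stat2, Gbp3 and Isg15 are printed because members of this list share a known sequence, the interferon-stimulated response element. It was searched as GAAA repeated once after any 2 bases, on either strand (TTTC repeated in the same way on the other), in the 250 bases before each RefSeq start of GRCm38.p6. Of the 21 members with a RefSeq start, 11 (52.4%) held a match, against 936 of 27025 genes (3.46%). The list was made of known interferon-stimulated genes, so this share goes with the choice of list and says nothing about the genotypes. Stat2 (chr10:128270248-128270497, forward strand), 1 of the 2 starts of Gbp3 (chr3:142559794-142560043, forward strand) and Isg15 (chr4:156200819-156201068, reverse strand) hold 1, 2 and 3 matches, of which those of Gbp3 and those of Isg15 overlap one another. Matches are in capitals, 5′ to 3′ along each gene. Ifih1 held none in its window, and a match is a description of letters and not of binding. The largest of these 3 differences was that of Gbp3, and Isg15, a ubiquitin-like protein gene, differed by 0.65 (SE 0.26; limma adjusted p = 0.648).
Stat2: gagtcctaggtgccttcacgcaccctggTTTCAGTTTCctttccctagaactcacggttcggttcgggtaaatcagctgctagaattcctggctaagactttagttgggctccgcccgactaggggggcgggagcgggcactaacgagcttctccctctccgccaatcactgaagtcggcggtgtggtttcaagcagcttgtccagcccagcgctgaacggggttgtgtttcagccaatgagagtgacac
Gbp3: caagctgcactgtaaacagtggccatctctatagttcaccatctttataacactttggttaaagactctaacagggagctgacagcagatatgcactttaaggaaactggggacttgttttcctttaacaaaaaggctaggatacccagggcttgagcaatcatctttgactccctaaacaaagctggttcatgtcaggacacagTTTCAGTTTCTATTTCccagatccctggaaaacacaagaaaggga
Isg15: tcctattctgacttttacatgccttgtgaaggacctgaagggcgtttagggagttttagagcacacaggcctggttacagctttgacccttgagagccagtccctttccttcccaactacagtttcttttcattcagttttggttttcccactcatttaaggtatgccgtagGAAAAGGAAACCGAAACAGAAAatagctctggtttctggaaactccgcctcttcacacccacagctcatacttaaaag

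Genes of antigen presentation, many of which interferons also raise, gave a smaller difference of the same sign. None of 20 was called (smallest limma adjusted p = 0.354). All 20 values were higher in Arg260 with a median of 0.23, as were 8 of 8 erythroid markers (median 0.24). Of the 20, 7 had an unadjusted p under 0.05. That count was 2 without Arg260 E2 replicate 3 or 4, 3 without WT E2 replicate 3 and 4 without WT E2 replicate 1 or 2. It was 3 after quantile normalisation and 4 in the deposited series table. Other settings raised the count, to 9 without Arg260 E2 replicate 1, 10 in the 8 E2 arrays alone and 8 with slide as a block. Psmb8, a subunit of the immunoproteasome, read 1.80, 2.09, 1.63 and 2.03 in WT and 2.47, 2.29, 2.49 and 2.53 in Arg260. Its groups did not overlap (difference 0.56, SE 0.13; limma adjusted p = 0.354). Tap1, a peptide transporter gene, differed by 0.44 (SE 0.12; limma adjusted p = 0.515), also without overlap, and B2m, the light chain of class I molecules, by 0.33 (SE 0.14; limma adjusted p = 0.659). H2-DMa, which loads class II molecules, differed by 0.35, with overlap. The median of the list was 0.16 on slide 1, where 15 of 20 values were higher, and 0.41 on slide 2, where 20 were. Of the 20 values, 19 were higher in the deposited series table and without WT E2 replicate 1.

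Markers of immune cells and of adipocytes were read beside both lists. Of 13 T and NK cell markers tested 12 values were higher in Arg260 (median 0.12), with mean levels of -1.76 to -1.58 in WT E2 and -1.72 to -1.37 in Arg260 E2. Of 12 macrophage markers 10 were higher (median 0.19; mean levels of 0.85 to 1.03 and 0.87 to 1.23), and of 7 B and plasma cell markers 3 were higher (median -0.14; -3.31 to -2.50 and -3.25 to -2.59). Of 9 neutrophil markers 4 were higher (median -0.0073; -2.27 to -1.05 and -2.23 to -1.68). Of 11 eosinophil and mast cell markers 8 were higher (median 0.13; -2.45 to -2.14 and -2.55 to -1.96). In these 5 lists 0 of the tested markers had an unadjusted p under 0.05; 1 of 14 T and NK cell markers, 1 of 13 macrophage markers, 3 of 10 B and plasma cell markers, 3 of 12 neutrophil markers and 3 of 14 eosinophil and mast cell markers were not among the genes tested. The mean of 13 adipocyte markers was -2.42, 0.46, 0.28 and -0.69 on the WT E2 arrays, against -0.56, -1.12, 1.31 and 0.59 on the Arg260 E2 arrays. Replicates 3 and 4 of Arg260 E2 were thus the highest of their group both in these markers and in the interferon-stimulated list. The WT E2 arrays did not share this order: replicate 2 was highest in adipocyte markers (0.46) and lowest in the interferon-stimulated list (-0.27). The part of these arrays and markers in the result was not tested. In whole tissue, more cells of a type and more RNA per cell cannot be told apart.

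Il11 was the only called gene of any list. Among the 25 cytokine and chemokine genes that hold it, the chemokine gene Ccl19 came next with a difference of 0.66 (SE 0.18; limma adjusted p = 0.491). The next, the chemokine genes Ccl5 and Cxcl14, had values of 0.39 each and an unadjusted p above 0.05. Among 35 genes of Wnt and hedgehog signalling 0 were called, with 1 higher and 4 lower at an unadjusted p under 0.05. The ligand gene Wnt5b read 3.09, 3.15, 3.10 and 3.02 in WT and 2.72, 2.43, 2.75 and 2.46 in Arg260. Its groups did not overlap (difference -0.50, SE 0.10; limma adjusted p = 0.267). Lgr5, a receptor gene of epithelial stem cells, differed by -0.66 (limma adjusted p = 0.545) and the Wnt antagonist gene Sfrp2 by -0.37. Among 29 growth factor genes 0 were called, with 2 higher and 3 lower at that p: Fgf18 differed by -0.80 (limma adjusted p = 0.496), Hgf, a stromal growth factor gene, by 0.59 (limma adjusted p = 0.525) and Fgf10 by 0.41. Of 26 angiogenesis genes 0 were called, with 3 higher and 1 lower at that p; the endothelin receptor gene Ednra differed by 0.52 and Adm, the gene of the vessel-dilating peptide adrenomedullin, by 0.47. Of 28 matrix protease genes 0 were called, and 4 had an unadjusted p under 0.05, all higher: Adamts1 by 0.41, Mmp2 by 0.48, Mmp14 by 0.24 and Mmp19 by 0.69.

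Housekeeping programmes that E2 raises were close between genotypes. All 40 ribosome biogenesis genes had a 95% interval within 1 unit of 0, with a median difference of 0.11 and a median response to E2 of 2.02 in both genotypes. The medians for 32 genes of oxidative phosphorylation and 21 of tRNA charging were 0.07 and 0.11, and 0 were called in either. After quantile normalisation these 3 medians were 0.06, 0.03 and 0.06. The median of 23 mitosis genes, -0.24, turned to 0.22 without WT E2 replicate 3, the only WT array in which the list stood high (mean -0.14, against -2.29 to -2.16 on the others). The median of 25 cholesterol synthesis genes was 0.66 on slide 1 and -0.15 on slide 2. Adipocyte markers gave the highest median of all lists, 0.92, with 10 of 13 values higher and 0 at an unadjusted p under 0.05. The median was 0.07 without WT E2 replicate 1, 0.30 without Arg260 E2 replicate 3 and 1.47 without Arg260 E2 replicate 2, 0.02 on slide 1 and 1.38 on slide 2.

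**Figure D5:**
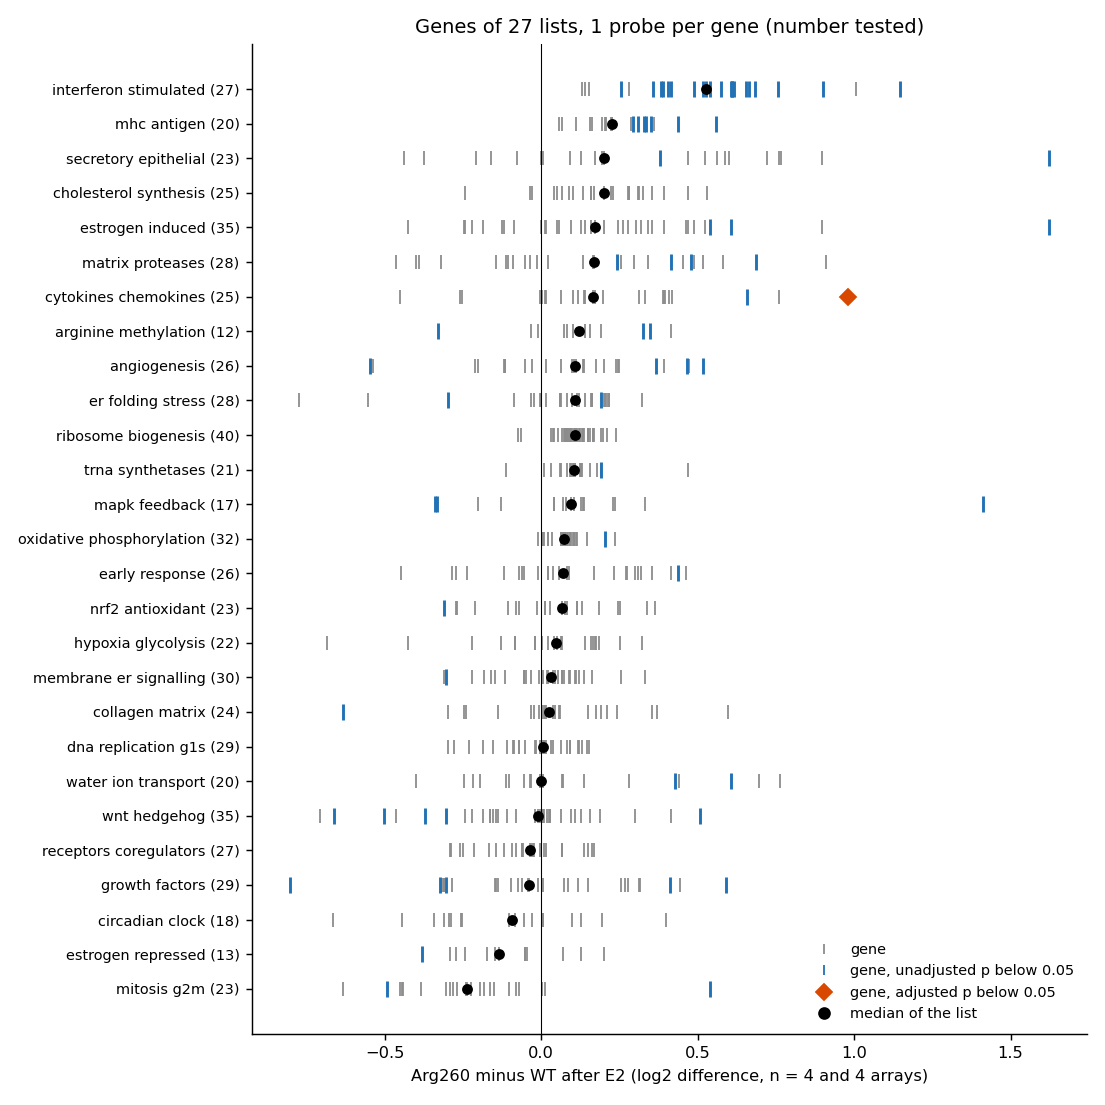
Difference between Arg260 E2 and WT E2 (x axis, log2) of each gene of 27 pathway lists (y axis, number of genes tested in parentheses); blue bars mark an unadjusted p under 0.05, the orange diamond the 1 called gene (Il11) and black dots the medians. Among these lists the interferon-stimulated one has the highest median (0.53) and the mitosis list the lowest (-0.24).

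Some uncalled genes were chosen here after their values were seen. Pqlc3, the closest to the threshold, differed by 0.94 (SE 0.14; limma adjusted p = 0.0726) and on its second probe by 0.77. That second probe read 1.47, 1.59, 0.99 and 1.56 in WT and 2.13, 2.17, 2.17 and 2.23 in Arg260, without overlap. Among lower genes Fam170b differed by -0.80 (limma adjusted p = 0.123) and Lhx3, a homeobox factor gene, by -0.76 (limma adjusted p = 0.218). Tapbpl, which encodes a relative of the peptide-loading protein tapasin, Synpo, an actin-associated protein gene, and Tmem100 followed with differences of 0.37, 0.74 and 0.91 (limma adjusted p = 0.245 for each). Further down, Rpa1, a subunit of the complex that binds single-stranded DNA, differed by -0.41 and -0.38 on its 2 probes (limma adjusted p = 0.310 for both). Of the 100 probes with the smallest p, 58 had the same sign in the PLB arrays, against 56.1% of all probes. Among the 2586 probes with an unadjusted p under 0.05 it was 1582 (61.2%).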

How the data were processed

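RNA from whole uteri, 200 ng per sample, was labelled with Cy3 and hybridised to 1-colour Agilent arrays, 1 array per sample, per the labels' protocols. Per the file headers, the authors read spot intensities out with version 10.10.1.1 of Feature Extraction (Agilent); the processed signal is a background-subtracted intensity without scaling between arrays. A log2 table of these arrays was deposited too; the submitters' processing notes name limma, while its filter and background correction are not given here. It served as an alternative only, and its columns follow the scanner signals with no centring or reversed sign found.

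From the intensities, log2 signals were centred on the 75th percentile of the array (control spots left out), outlier spots were dropped and spots of 1 probe averaged. Spots well above background numbered 36505 to 41890 on an array (61.6% to 70.6%, controls left out), and 0 were saturated. With 4 arrays a group, the median 95% interval of a difference reached 0.295 log2 units to either side. Group means of all 16 arrays were fitted with limma 3.58.1 in R 4.3.3 (lmFit, eBayes; 12 residual and 2.26 prior degrees of freedom); tests were two-sided, with Benjamini-Hochberg over the 35582 probes and calls at an adjusted p under 0.05. The procedure was tested on simulated data. For lists, the probe with the highest mean over the E2 arrays stood for a gene. Names came from the array files, updated through a GRCm38.p6 table (27235 probes by accession, 3581 by symbol, 565 by synonym); positions are mm9.

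Named are Esr1, Pgr, every called gene and up to 4 genes per list with the smallest p. Members and lists were chosen with earlier results of these data known. Alternatives changed the arrays, block, normalisation, filter, probe rule and prior, or left out 1 array.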

Additional observations from a re-analysis of the deposited data

Results flagged for a closer look

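In the groups of 4 arrays examined (90 means of gene lists and 12 gene levels), 8 held an array that stood apart, with a gap to its nearest neighbour, as a share of the group's range, above Dixon's 95% critical value. Chance flags about 1 in 20 groups, and the lists share arrays. WT E2 replicate 3 stood highest for mitosis genes (gap 0.940 of the range) and for DNA replication genes (0.927), which cycling cells express, and for endothelial markers (0.866). Arg260 E2 replicate 3 stood lowest for cholesterol synthesis genes (0.835) and for markers of pancreas and lymph node (0.962), which are dim here. Arg260 E2 replicate 1 stood highest for tRNA synthetase genes (0.899) and smooth muscle markers (0.849), and Arg260 E2 replicate 4 stood lowest for striated muscle markers (0.859). A gap as a share of the range can be small in size. The mean of the tRNA synthetase genes ran only from 3.63 to 3.66 in Arg260 E2. The mean of the endothelial markers ran from 0.99 to 1.06 in WT E2. The levels of Il11, Kalrn, Fam178b, Gpsm2, Esr1 and Pgr held no such array. No cause of these gaps was tested.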

How the results depend on the processing

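The difference kept its sign for Il11, Kalrn, Fam178b, Gpsm2, Esr1 and Pgr under all alternatives run, and Esr1 and Pgr stayed uncalled in each; the calls of the other 4 depended on the setting. The number of called probes was 4. It was 0 in the 8 E2 arrays alone, with the replicate block, on slide 1 or slide 2 alone, with no filter and with 1 probe per gene. It was also 0 without WT PLB replicate 2 and Arg260 PLB replicate 3 (2 PLB arrays, an alternative chosen after seeing the data). The number was 1 with slide as a block and 7 with normexp and quantile normalisation. In the 8 E2 arrays alone, with the replicate block, without the 2 PLB arrays and with no filter, none of the 4 was called at differences of 0.98 for Il11, 0.76 for Kalrn, -1.12 for Fam178b and -0.76 for Gpsm2 (limma adjusted p from 0.0733 to 0.813). With slide as a block Il11, Fam178b and Gpsm2 lost the call at those differences. Same-numbered samples correlated at -0.09 to 0.04 in their deviations. These values show no sign of pairing by replicate number, but with 4 arrays a group they cannot settle it. The replicate block left 0 calls. On slide 1 alone the differences were 0.87 (Il11), 0.74 (Kalrn), -0.99 (Fam178b) and -0.81 (Gpsm2), and on slide 2 alone 1.09, 0.78, -1.25 and -0.70, with no call on the 2 arrays per group that remain. Il11 lost its call after quantile normalisation (0.91) and with array weights (0.98), and Kalrn in the series table (0.69). With 1 probe per gene the probes chosen gave 0.79 for Kalrn and -0.23 for Fam178b, and 0.98 and -0.76 for Il11 and Gpsm2, all uncalled. With the mean of a gene's probes Kalrn (0.75) and Fam178b (-0.67) lost the call. The cause of these losses was not tested.

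Leaving out 1 E2 array at a time gave 0 to 8 calls; Il11 ranged from 0.90 to 1.04, Kalrn from 0.67 to 0.82, Fam178b from -1.23 to -1.0 and Gpsm2 from -0.82 to -0.70. The interferon-stimulated median (0.53) was 0.23 on slide 1 and 0.81 on slide 2, and 0.36 to 0.65 with 1 array left out. Of 1080 list medians recomputed, 51 moved by more than the spread between arrays, 35 of them within single slides. Signal near background limits Fam178b, whose levels are dim; 4 arrays a group limit the rest.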
